A study of Homo sapiens with 6 samples.

Results

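The 919 genes described here lost most H3K27me3 counts after MAK683 in G401 cells, among 16768 genes with at least 100 H3K27me3 counts in DMSO (5.48%) and 56638 genes in the whole count table. They were chosen by their measured H3K27me3 counts. A gene was taken if its H3K27me3 count in DMSO was at least 100 and the log2 ratio of MAK683 to DMSO, with 1 added to each count, was at most -0.9, that is, if its count fell to 0.536 times or less. A gene without input counts would have been left out, and none of the 919 was. G401 cells were derived from a malignant rhabdoid tumor and have lost SMARCB1, a subunit of the SWI/SNF chromatin remodeling complex. Neither input library held any count for the SMARCB1 gene. The cells were kept for 3 days in DMSO or in 3 µM MAK683, an inhibitor that binds EED. Each treatment gave 1 library of H3K27me3, 1 of H3K4me3 and 1 of input (sonicated chromatin sequenced without antibody), so no difference between treatments has a replicate check and no p-value was computed. Intervals given for single genes are 95% exact Clopper-Pearson intervals of the share of a gene's counts found in MAK683, those of medians come from binomial ranks over genes, and both cover counting or gene-to-gene spread only, not differences between chromatin preparations.

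PRC2 is the complex that trimethylates histone H3 at lysine 27. Its catalytic subunit is EZH1 or EZH2, and its EED subunit binds the finished mark and stimulates the enzyme, which lets the mark spread over a domain. H3K27me3 covers genes kept silent, among them many regulators of development and lineage genes of other tissues, while H3K4me3 lies at the start sites of genes that are active or poised. Start sites that carry both marks are called bivalent and usually lie in CG-rich sequence.

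The sequence just upstream of the start site is given for 4 of the genes, chosen after their values were seen, because it shows the 2 kinds of start site that the group holds. EN2 is a developmental transcription factor gene with many CG dinucleotides upstream, and ANKRD1, KRT74 and CTLA4 are genes of differentiated tissues with few. Each sequence holds the 250 bases before the start of the gene's canonical transcript in GENCODE release 44, read from GRCh37 on the gene's own strand, with CG in capitals. CG reads the same on both strands. The windows are chr7:155250574-155250823 (+) for EN2, chr10:92680845-92681094 (-) for ANKRD1, chr12:52967628-52967877 (-) for KRT74 and chr2:204732244-204732493 (+) for CTLA4.
EN2: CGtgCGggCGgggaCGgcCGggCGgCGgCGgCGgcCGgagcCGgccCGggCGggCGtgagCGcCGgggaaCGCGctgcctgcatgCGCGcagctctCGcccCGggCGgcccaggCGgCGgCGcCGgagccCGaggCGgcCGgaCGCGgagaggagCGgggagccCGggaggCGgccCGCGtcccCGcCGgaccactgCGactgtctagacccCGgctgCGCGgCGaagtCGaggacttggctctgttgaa
ANKRD1: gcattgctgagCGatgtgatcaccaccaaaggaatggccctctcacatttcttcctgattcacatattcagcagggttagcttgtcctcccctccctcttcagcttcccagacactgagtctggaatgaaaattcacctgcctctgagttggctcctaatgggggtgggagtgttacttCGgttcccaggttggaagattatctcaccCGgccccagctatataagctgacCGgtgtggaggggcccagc
KRT74: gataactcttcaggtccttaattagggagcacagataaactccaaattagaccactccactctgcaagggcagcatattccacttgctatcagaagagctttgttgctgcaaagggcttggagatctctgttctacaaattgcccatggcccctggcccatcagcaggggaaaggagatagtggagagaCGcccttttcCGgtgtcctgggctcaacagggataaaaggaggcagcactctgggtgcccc
CTLA4: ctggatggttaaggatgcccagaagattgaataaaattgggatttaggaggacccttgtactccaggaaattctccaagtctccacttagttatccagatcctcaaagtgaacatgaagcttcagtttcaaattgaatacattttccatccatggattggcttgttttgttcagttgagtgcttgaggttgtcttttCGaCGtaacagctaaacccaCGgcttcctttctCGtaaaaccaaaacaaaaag

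The EN2 window holds 45 CG, against 4 each for ANKRD1 and CTLA4 and 2 for KRT74. Over the 27908 genes of the table with such a window, 94.1% hold at least 1 CG, 53.6% hold at least 10, and the median is 12.

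The 6 libraries held between 13308099 and 21281877 counts, and 3 counts, taken as the smallest visible level, were between 0.141 and 0.225 CPM (counts scaled to the same library total). The counts cover whole genes, so a narrow signal at a start site is diluted in a long gene. The Drosophila spike-in that the methods describe is not visible in these whole-number counts, so a fall in counts is a fall relative to the other genes and to the depth of the library, and not an amount of the modification per cell. The MAK683 H3K27me3 library was smaller than the DMSO library by a log2 ratio of -0.53, and the median log2 ratio over 29931 genes with at least 10 counts was -0.44. A gene that followed the library would have 41.0% of its H3K27me3 counts in MAK683. The threshold of -0.9 lies at 34.9%.

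From DMSO to MAK683, the 919 genes went from a median H3K27me3 count of 233 to 109. Their log2 ratios ran from -2.44 to -0.90 with a median of -1.01, which is -0.57 relative to the median of all genes and -0.49 in CPM. Of them, 519 fell at least 2-fold, 20 at least 3-fold and 4 at least 4-fold. The interval of the share lay wholly under the library's 41.0% for 864 genes and wholly under the threshold's 34.9% for 132. Both numbers reuse the counts that chose the genes and are descriptions. With the libraries scaled to CPM first, 50 genes would have met the threshold, so the number rests on counts as deposited. The loss itself was set by the rule and is given as a description.

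**Figure D1:**
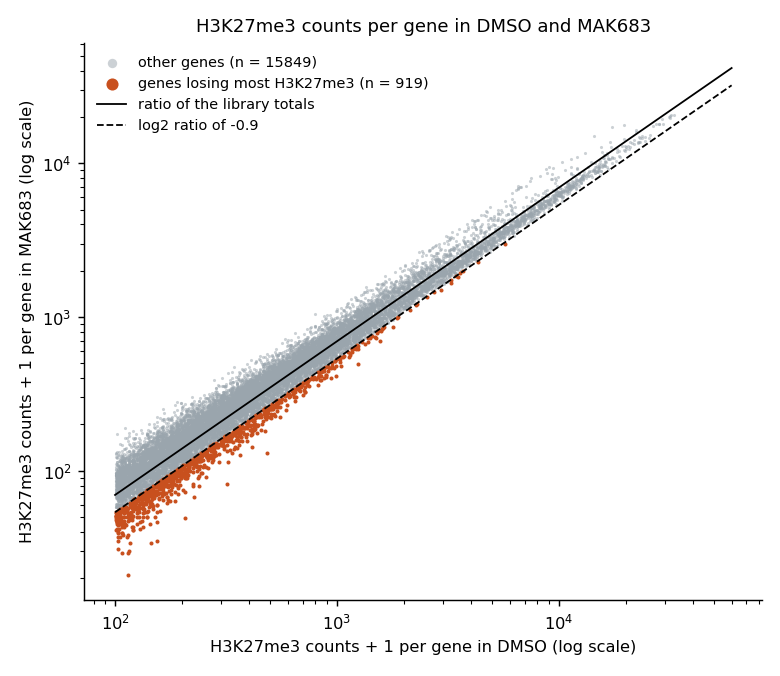
H3K27me3 counts plus 1 per gene in DMSO (x axis) and MAK683 (y axis), both on log scales, 1 point per gene with at least 100 counts in DMSO. The 919 genes (orange) lie on or under the dashed line of a log2 ratio of -0.9, the solid line is the ratio of the library totals, and the orange points thin out toward high counts.

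The 4 genes that fell at least 4-fold were CDKN1C, HES1, LHX1 and GATA3-AS1. CDKN1C encodes a cyclin-dependent kinase inhibitor and went from 113 to 20 H3K27me3 counts (15.04% in MAK683, 9.43 to 22.3). HES1, a repressor that acts downstream of Notch, went from 154 to 34 (18.1%, 12.9 to 24.3), and both genes are named after their values were seen. LHX1, a LIM homeobox gene of kidney and head development, went from 144 to 33 counts (18.6%, 13.2 to 25.2). All were short, between 2.56 and 7.83 kb, and had low counts, and all had high H3K4me3 over input already in DMSO, with log2 values of 5.68 for CDKN1C, 3.91 for HES1, 4.17 for LHX1 and 3.63 for GATA3-AS1. The span of GATA3-AS1, a noncoding gene beside GATA3, is wholly overlapped by other genes in GENCODE, so its 206 and 48 counts are uncertain. GATA3 itself, a transcription factor gene of T cells and epithelia, missed the threshold with 944 and 509 counts.

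Among the 519 genes with at least 200 counts in DMSO and a summed input of at least 20, GATA3-AS1 had the lowest ratio and the next 9 are given here. HMX3, a homeobox gene of the inner ear, went from 318 to 81 H3K27me3 counts (20.3% in MAK683, 16.5 to 24.6), with 26 and 46 input counts. UNCX, a homeobox gene of the somites, went from 484 to 129 (21.04%, 17.9 to 24.5), but its input also fell, from 82 to 45. NOG, a secreted antagonist of BMPs, went from 225 to 66 (22.7%, 18.0 to 27.9). The next were KISS1R, the kisspeptin receptor gene, with 237 and 78 counts, SOX4 with 415 and 141, INHBB, which encodes an activin subunit, with 363 and 126, MEIS1-AS3 with 321 and 112, BCL6, a zinc finger repressor of B cells, with 224 and 78, and KPRP, a gene of the epidermal differentiation complex, with 205 and 72. Their log2 ratios ran from -1.96 in HMX3 to -1.50 in KPRP. In BCL6 40.4% of the span and in SOX4 62.1% is free of other genes, and their counts are uncertain to that degree.

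The highest counts belonged to genes close to the threshold. PAX7, a paired box gene of muscle stem cells, went from 5702 to 2986 H3K27me3 counts (34.4%, 33.4 to 35.4) over 118 kb. EGR2, a zinc finger gene of hindbrain and Schwann cells, had 4301 and 2292, with 1341 and 1635 input counts. Its span in GENCODE is 7.17 kb, of which 34.0% is free of other genes. At the median of 11.58 input counts per kb in symbol-named members, so short a span would hold far fewer input counts. The span that was counted may therefore be another one, which was not tested, and no level per kb is given for EGR2. PRDM6 had 3713 and 1989. BOC, a Hedgehog co-receptor gene, had 3598 and 1918. ST8SIA2, a polysialyltransferase gene of neural tissue, had 3520 and 1816, and GAP43, a gene of growing axons, had 3273 and 1741. LRIG1, RIMKLB, DLX6-AS1 and 1 clone-named gene completed the 10, with counts in DMSO between 2733 and 3452. None of these 10 fell further than a log2 ratio of -0.98. Among genes with at least 500 counts, the last to be taken were PRDM6, CLCN1 (996 and 533 counts) and 1 clone-named gene (600 and 321), and the first left out were CHRDL2 (542 and 290), KLK2 (767 and 411) and 1 clone-named gene (508 and 272). Rounded, all 6 shares in MAK683 were 34.9%, and their intervals overlap.

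Level over input is the log2 ratio of CPM in a modification library to CPM in the input library of the same treatment, with 1 count added. It was computed where the summed input was at least 20, for 918 of the 919 genes. Their median H3K27me3 over input in DMSO was 1.28 (1.24 to 1.34), against -0.64 (-0.66 to -0.62) over all 16765 genes with at least 100 counts. After MAK683 the medians were 0.74 (0.68 to 0.80) and -0.46 (-0.48 to -0.44). The 919 genes thus went toward the level of the others but remained above it. In DMSO 597 of them had at least 2 times input (65.0%, against 15.7% of all) and 172 at least 4 times (18.7%, against 2.32%). In MAK683 330 had at least 2 times (35.9%, against 10.3%). Of the 597, 269 were under 2 times input in MAK683. The other 54.9% stayed at 2 times or more, against 63.4% of the 2030 other genes at that level. H3K27me3 over input was lower in MAK683 than in DMSO for 886 of the 918 (96.5%, against 41.9% of all). Part of this uses the libraries of the rule and is a description.

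The share of genes that met the rule rose with level over input and fell with count. It was 44.1% (173 of 392) at 4 times input or more, 19.0% (425 of 2238) at 2 to 4 times and 0.20% (8 of 4012) at less than 0.5 times input. By count, it was 9.51% (400 of 4208) at 100 to under 200 counts in DMSO and 0.129% (1 of 773, PAX7) at 5000 or more. The median log2 ratio of all genes in a group went the other way by count, from -0.41 at 100 to under 200 counts to -0.66 at 5000 or more, so fewer genes passed at high counts while the typical gene there lost more. The spread from counting is widest at low counts, and its part in the number of genes that passed was not tested.

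**Figure D2:**
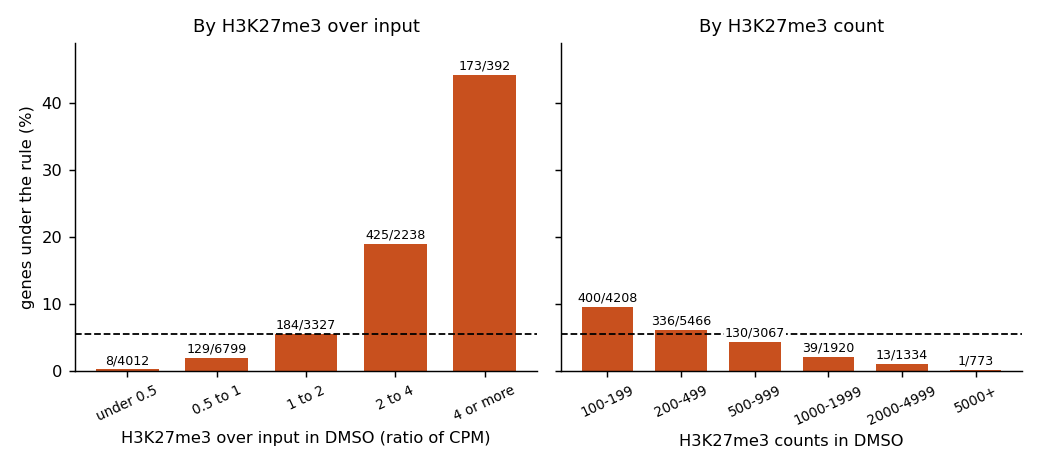
Percentage of genes with at least 100 H3K27me3 counts in DMSO that met the rule (y axis), by H3K27me3 over input in DMSO (left) and by H3K27me3 count in DMSO (right). Numbers over the bars are genes under the rule and genes in the group, and the dashed line is the 5.48% over all groups. The share climbs to 44.1% at 4 times input and declines to 0.129% at 5000 counts.

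IRX3, a homeobox gene of heart, limb and neural patterning, had the highest H3K27me3 over input among genes with a summed input of at least 100. Its log2 value was 3.66 in DMSO and 1.99 in MAK683, from 501 and 249 H3K27me3 counts and 34 and 91 input counts. CHST2, a sulfotransferase gene, had 3.32 and 2.45, CCDC140 3.31 and 2.22, and TFAP2C, an AP-2 transcription factor gene of trophoblast and germ cells, 3.17 and 1.94. A clone-named gene beside PDGFA had 3.14 and 1.66. The input counts of all 5 were higher in MAK683 than in DMSO. Over the 172 genes at 4 times input or more, the median log2 input change in CPM was 0.28 (0.20 to 0.33), and over the 217 other genes at that level it was 0.24 (0.20 to 0.30). It was 0.04 (0.02 to 0.07) over all 918 genes and -0.00 over all genes with at least 100 counts. Input differed at least 2-fold for 16 of the 918 genes, against 0.197% of all genes with at least 100 counts. The part of input in the levels over input was not tested. When the input change in CPM was subtracted from the H3K27me3 change, 678 of the 919 genes met the threshold with H3K27me3 counts as deposited and 161 with H3K27me3 in CPM.

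At the other end, 137 of the 919 genes had H3K27me3 under input in DMSO and in MAK683. In DMSO 85.1% of the members were over input, against 35.5% of all genes with at least 100 counts. SGCB, a sarcoglycan gene, had the lowest, with log2 values of -1.34 and -1.54 from 108 and 54 H3K27me3 counts, and BTG3, an antiproliferative gene, had -1.20 and -1.42 from 126 and 63. ZNF775, AP2S1, which encodes a clathrin adaptor subunit, and CGRRF1 followed, between -1.08 and -1.04 in DMSO. Their H3K4me3 was above input instead. The log2 values in DMSO were 1.65 for SGCB, 2.26 for BTG3, 1.74 for ZNF775, 1.73 for AP2S1 and 0.96 for CGRRF1. The 137 genes had a median H3K4me3 over input of 0.75 (0.23 to 1.19), against 0.14 (0.11 to 0.18) over the 10674 other genes under input. They also had a median H3K27me3 count of 149 in DMSO, against 318. Their median input count in DMSO was 192 against 522.5, so the H3K4me3 levels are not compared at like gene length. H3K4me3 was at least 2 times input for 59 of the 137 (43.1%, against 24.0% of the 10674). The members thus ran from H3K27me3 well over input, through 184 genes at 1 to 2 times input, to the 137 under it.

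Gene classes were counted from lists of symbols. Developmental transcription factors (HOX, other homeobox and PAX, forkhead, SOX, T-box and GATA, basic helix-loop-helix and lineage zinc finger genes) made up 70 of the 919 genes. These were 26.5% of the 264 such genes with at least 100 counts, and the other 849 genes were 5.14% of 16504. The median log2 H3K27me3 change of all 264 was -0.70, and that of the 16504 was -0.45.

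Of the homeobox and PAX genes outside the HOX clusters, 35 of 113 (31.0%) met the rule. Among them were PAX7, POU2F3 with 2293 and 1206 H3K27me3 counts, and EMX1, a gene of the forebrain, with 1555 and 700. Only 8 of 39 HOX genes had at least 100 counts, and 4 of the 8 met the rule. HOXB7 went from 553 to 223 H3K27me3 counts, HOXD11 from 433 to 196, HOXD10 from 409 to 170 and HOXA13 from 153 to 53. Of forkhead genes 6 of 26 (23.1%) met it, among them FOXF1 with 374 and 156 counts, FOXF2 with 477 and 230, FOXA1, a pioneer factor gene of endoderm, with 354 and 165, and FOXQ1 with 260 and 121. SOX genes gave 3 of 10, namely SOX4, SOX1 and SOX8, and the span of SOX1 is wholly overlapped by other annotation. T-box and GATA genes gave 3 of 17, with TBX3 at 690 and 349 counts, TBR1, a cortical neuron gene, at 445 and 223, and EOMES, a gene of mesendoderm and cytotoxic lymphocytes, at 138 and 49. Of the helix-loop-helix genes 9 of 32 (28.1%) met the rule, among them NEUROD2, a neuronal gene, with 477 and 232 counts, TAL1, a blood gene, with 448 and 232, NHLH2 with 391 and 187, and HEY1, a Notch target, with 294 and 127. Lineage zinc finger genes gave 10 of 58 (17.2%), headed by EGR2, PRDM6, PRDM1 (1299 and 690) and PRDM13 (785 and 398).

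**Figure D3:**
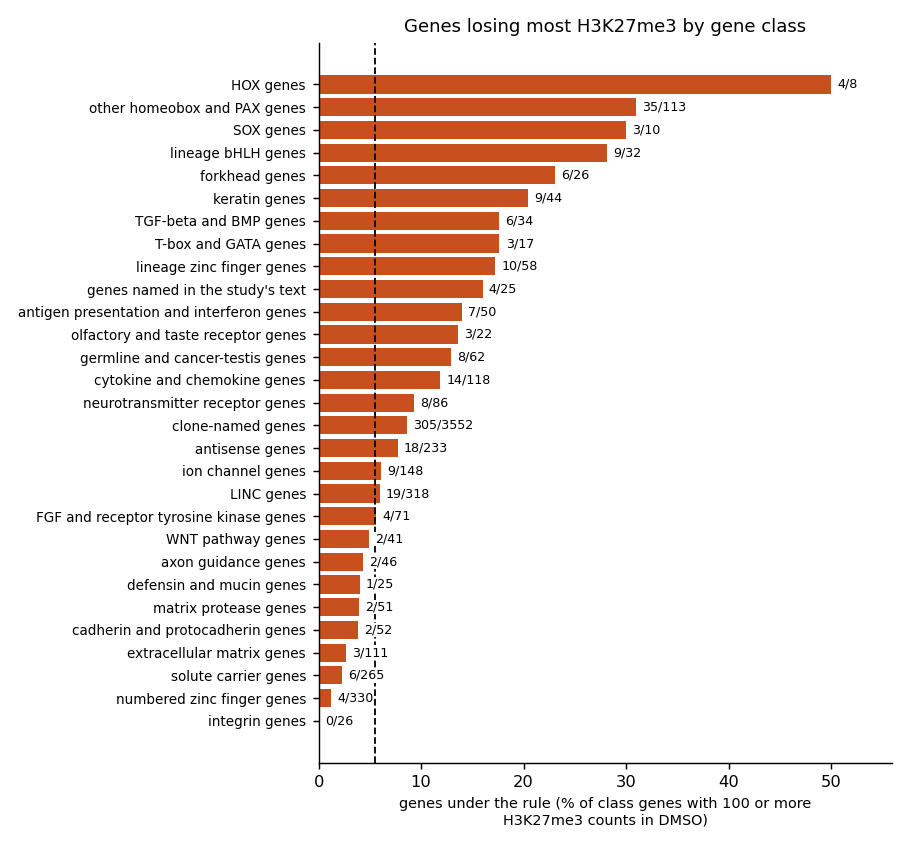
Percentage of the genes of each class with at least 100 H3K27me3 counts in DMSO that met the rule (x axis), with the counts beside each bar and a dashed line at the 5.48% of all genes. Transcription factor classes lie between 17.2% and 50.0%, and integrin, numbered zinc finger and solute carrier genes lie between 0 and 2.26%. Classes with under 20 such genes are left out except HOX, SOX and T-box and GATA genes. The classes are not compared at like gene length.

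Signaling and tissue genes were mixed. Of TGF-beta and BMP genes 6 of 34 (17.6%) met the rule, with NOG and INHBB above, FST, which encodes the activin antagonist follistatin, at 478 and 227 H3K27me3 counts, and BMP10, a cardiac ligand gene, at 243 and 125. Keratin genes gave 9 of 44 (20.5%), with KRT74, a hair follicle keratin gene, at 506 and 250, KRT6A at 340 and 176, KRT9, a keratin gene of palm and sole skin, at 337 and 130, and KRT75 at 279 and 124. Cytokine, chemokine and related genes gave 14 of 118 (11.9%), with IGFBP5 at 890 and 417, IGFBP2 at 735 and 381, IL10RA at 722 and 382 and FAS at 632 and 316. Antigen presentation and interferon genes gave 7 of 50, among them the lipid antigen presenting genes CD1D (420 and 201), CD1E (162 and 86) and CD1B (148 and 67).

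Neurotransmitter receptor genes gave 8 of 86, with HRH2 at 1483 and 735 H3K27me3 counts and DRD1, a dopamine receptor gene, at 322 and 164. Ion channel genes gave 9 of 148 (6.08%). WNT pathway genes gave 2 of 41 (WNT16 and FZD1), receptor tyrosine kinase and FGF genes 4 of 71, axon guidance genes 2 of 46 and cadherin genes 2 of 52. Germline genes gave 8 of 62 (12.9%) and olfactory and taste receptor genes 3 of 22. Extracellular matrix genes gave 3 of 111 (2.70%), with FMOD at 449 and 232, SRPX2 at 341 and 172 and COMP, a cartilage gene, at 308 and 141. Matrix protease genes gave 2 of 51, solute carrier genes 6 of 265, numbered zinc finger genes 4 of 330 (1.21%) and integrin genes 0 of 26. Small classes gave 1 of 25 defensin and mucin genes, 1 of 4 antigen receptor segments, 1 of 2 histone genes, 2 of 12 microRNA genes, 0 of 15 ribosomal protein genes and 0 of 6 small RNA genes. Noncoding classes lay nearer to the 5.48% of all genes, with 19 of 318 LINC genes (5.97%), 18 of 233 antisense genes (7.73%) and 305 of 3552 clone-named genes (8.59%). In no list were 413 of the 919.

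Gene length went with these shares. The 614 members that carry a gene symbol had a median length of 11.5 kb (10th and 90th percentiles of 3.54 and 36.9 kb, 596 matched to GENCODE), against 49.4 kb over all 13216 such genes. Per kb, their median H3K27me3 count in DMSO was 27.9 against 7.98, while the input count per kb was 11.58 against 11.98. Of symbol-named genes under 20 kb 18.3% met the rule (447 of 2437), of those of 20 to 50 kb 2.55% (105 of 4118) and of those of 50 kb or more 0.683% (44 of 6439). Among genes under 20 kb with H3K27me3 at least 2 times input, 38.8% of all symbol-named genes met it (297 of 766), and 44.7% of developmental transcription factors did (51 of 114). At like length and level the classes therefore lay closer together than the 26.5% and 5.14% above. Lengths, chromosomes and upstream windows are given for symbol-named genes only, because only 65.6% of the 919 names matched.

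Upstream of the start site, 595 symbol-named members had a window, with a median of 12 CG against 19 over all such genes. At least 10 CG were found for 329 (55.3%, against 73.7% of all), and at most 5 for 215 (36.1%, against 19.4%). Both kinds had like H3K27me3 over input in DMSO, with medians of 1.24 and 1.29, against -0.88 and 0.33 over all such genes. They differed in H3K4me3 over input, with medians of 0.995 with at least 10 CG and -0.76 with at most 5. Over all such genes these medians were 0.29 and -0.83, so a split by CG is not particular to the members. Among members, 164 of 329 against 11 of 215 had H3K4me3 at least 2 times input. Of the 70 transcription factors 56 had at least 10 CG, as in the EN2 window above, and 6 had at most 5. The windows of KRT74 and CTLA4 are examples of the CG-poor kind.

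Some of the genes were neighbors. In the order of the table, among genes with at least 100 counts, 217 of the 919 lay beside another, in 79 pairs, 13 runs of 3 and 4 longer runs. The longest held 6 genes. On chromosome 1, IL20, IL24, FAIM3, PIGR, FCAMR and C1orf116, which lie between positions 207038968 and 207206101, had H3K27me3 over input between 1.03 and 2.10 in DMSO and log2 losses between -1.22 and -0.92. On chromosome 7, EN2 lay in a run with BLACE, CNPY1 and 3 clone-named genes from 155149680 to 155348145. Other runs held PDGFA with 3 clone-named genes, PRSS1, PRSS3P1, TRBC2 and EPHB6, and HOXD11, HOXD10 and HOXD-AS2. Neighbors can share a domain and are not independent genes. The number of neighbors that a share of 5.48% would give without clustering was not computed, so the 217 is a description. On chromosome X 37 of 371 symbol-named genes (9.97%) met the rule, and on the autosomes between 2.60% (chromosome 14) and 6.61% (chromosome 7).

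H3K4me3 was measured in libraries that the rule did not use. The median H3K4me3 count of the 919 genes was 118 in DMSO and 132 in MAK683, with 105 and 129 input counts. Their median log2 H3K4me3 change in CPM was 0.12 (0.08 to 0.17), against 0.02 (0.02 to 0.03) over all 16768 genes. H3K4me3 was higher in MAK683 for 574 of the 919 (62.5%, against 54% of all genes with at least 100 H3K27me3 counts). It was at least 2-fold higher for 69 (7.51%), against 1.01% of all such genes (169 of 16768) and 4.22% of the 30028 genes of the table with at least 10 H3K4me3 counts. It was at least 2-fold lower for 3 clone-named genes, against 0.0537%. The share of a gene's H3K4me3 counts in MAK683 lay above the library's 48.0% beyond its interval for 283 genes (30.8%, against 26.8% of all) and under it for 88 (9.58%, against 21.7% of all). On counts as deposited, without scaling to library size, the median change was 0.00.

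The H3K4me3 change went with the level of H3K27me3 before treatment. Across the 919 genes, which are not independent replicates and share their libraries, Spearman's rho of the H3K4me3 change with H3K27me3 over input in DMSO was 0.38. The loss itself was bounded by the rule, so the rho of its log2 ratio with the H3K4me3 change, -0.05, is a description only. The median log2 H3K4me3 change was -0.10 (-0.14 to -0.03) for the 137 genes under input, 0.04 (-0.02 to 0.10) at 1 to 2 times input, 0.18 (0.11 to 0.23) at 2 to 4 times and 0.52 (0.38 to 0.68) at 4 times or more. Other genes at the same level had similar medians, 0.19 (0.18 to 0.21) at 2 to 4 times input and 0.62 (0.55 to 0.72) at 4 times or more. H3K4me3 rose at least 2-fold for 25.4% of the members (44 of 173) and 23.7% of the other genes (52 of 219) at 4 times input or more. At 2 to 4 times the shares were 5.41% (23 of 425) and 1.71% (31 of 1813). For symbol-named genes under 20 kb and at 2 times input or more they were 12.1% (36 of 297) and 11.5% (54 of 469), with medians of 0.26 (0.17 to 0.37) and 0.33 (0.29 to 0.39). At like length and level, a larger H3K4me3 gain at the members than at other H3K27me3-rich genes was therefore not seen.

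**Figure D4:**
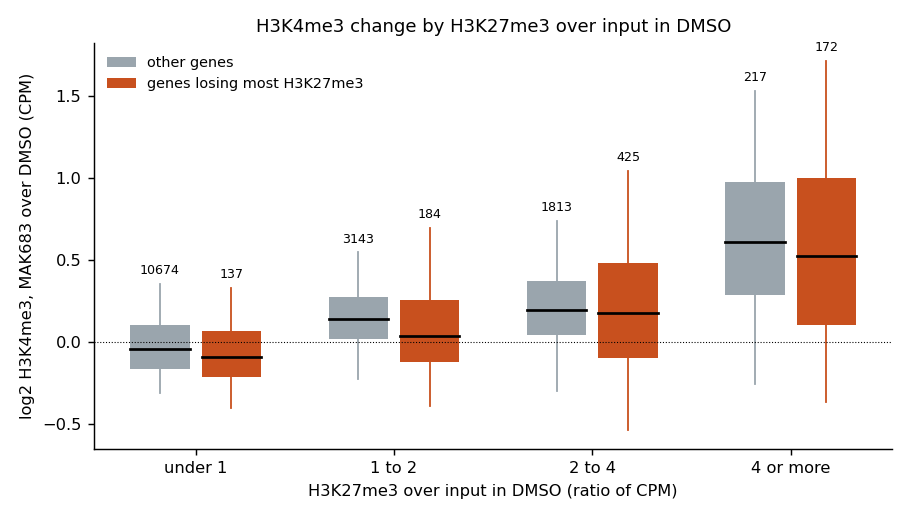
Log2 H3K4me3 change in CPM, MAK683 over DMSO (y axis), by H3K27me3 over input in DMSO (x axis), for the genes losing most H3K27me3 (orange) and the other genes with at least 100 H3K27me3 counts (gray). Boxes span the quartiles over genes, black lines are medians, thin lines span the 5th to 95th percentiles and numbers are genes. Medians climb with the level in both groups, to 0.52 and 0.62 at 4 times input or more.

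The 69 genes with an H3K4me3 gain of at least 2-fold went from a median of 78 to 207 H3K4me3 counts. All 69 had a share interval above that of the library, which reuses the counts that chose them and is a description. In DMSO 67 had H3K27me3 at least 2 times input, as did 83 of the 100 other genes that gained 2-fold. Their median log2 H3K4me3 over input went from -0.09 to 1.20, and the number at 2 times input or more from 13 to 41. They included 46 symbol-named genes and 11 developmental transcription factors, against 120 and 32 among all 169 genes that gained 2-fold. Their median H3K27me3 log2 ratio was -1.09, against -1.01 for the other members. Both medians were bounded by the rule and are descriptions.

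The largest gains, among 735 members whose mean H3K4me3 count reached 50, were in 5 genes with log2 H3K4me3 over input between -0.68 and 0.88 in DMSO. ANKRD1, a stress-induced gene of heart muscle, went from 73 to 491 H3K4me3 counts (87.1% in MAK683, 84.0 to 89.7), a log2 change of 2.85 in CPM. Its H3K27me3 went from 268 to 124 counts and its input from 93 to 132. MAF, a bZIP factor gene of lens and lymphocytes, had 190 and 768 H3K4me3 counts (80.2%, 77.5 to 82.6) and 986 and 414 H3K27me3 counts. SNAI2, a regulator of neural crest and epithelial-mesenchymal transition, had 74 and 293 H3K4me3 counts (79.8%, 75.4 to 83.8) and 262 and 116 H3K27me3 counts. TBX3, a T-box gene of limb and mammary gland, had 172 and 660 H3K4me3 counts (79.3%, 76.4 to 82.0). EN2, a homeobox gene of midbrain and cerebellum, had 223 and 797 (78.1%, 75.5 to 80.6). In all 5 the MAK683 counts were far outside the library's 48.0%, and EN2 holds 45 CG upstream while ANKRD1 holds 4. Among other members named here, FST went from 200 to 414 counts, FOXF1 from 102 to 210, TFAP2C from 245 to 749 and NOG from 355 to 667.

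The largest decreases were smaller. With the same minimum, HSPD1P6, a pseudogene, went from 152 to 84 H3K4me3 counts, LGALS14, a galectin gene of the placenta, 74 and 41, CTLA4, an inhibitory receptor gene of T cells, 75 and 42, IFI44, an interferon-induced gene, 99 and 59, and 1 clone-named gene 84 and 46. Their log2 changes lay between -0.74 and -0.62, and their H3K4me3 over input in DMSO was between -0.86 and 0.00, so these were changes among low levels. For CTLA4 35.9% of the counts were in MAK683 (27.2 to 45.3).

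H3K4me3 over input in DMSO had a median of -0.38 (-0.47 to -0.30) over 918 genes, close to the -0.35 (-0.37 to -0.34) of all genes with at least 100 H3K27me3 counts. The median hides a wide range, and 216 of the 918 genes had at least 2 times input, against 17.6% of all. Among genes with a summed input of at least 100, high log2 values were found for SAMD11 (4.31), KISS1R (4.18) and LHX1 (4.17), with H3K4me3 counts of 3624 and 2671 for SAMD11, 800 and 684 for KISS1R and 1161 and 842 for LHX1. H3K4me3 did not rise at these genes, whose log2 changes lay between -0.35 and -0.11.

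Both modifications were at least 2 times input in DMSO for 125 of the 918 genes (13.6%), against 1.35% of all (227 of 16765). Among genes with H3K27me3 at least 2 times input, these were 20.9% of members (125 of 597) and 5.02% of other genes (102 of 2030). For symbol-named genes under 20 kb at that level, the shares were 29.3% (87 of 297) and 16.9% (79 of 468). Of the 125, 30 were developmental transcription factors, such as IRX3, HMX3, FOXF2, HEY1, NEUROD2 and PRDM13, and 84 of the 97 with an upstream window held at least 10 CG. Their median H3K27me3 over input went from 2.19 to 1.42, and 42 of the 125 were under 2 times input in MAK683. Their median H3K4me3 over input went from 2.39 to 2.57, with a median change of 0.20, higher in 85 genes and at least 2-fold higher in 13. The 102 other genes with both modifications had a median H3K4me3 change of 0.41, and 16 of them rose at least 2-fold. HMX3 had 349 and 511 H3K4me3 counts, HEY1 500 and 644 and IRX3 391 and 718. FOXA1 went the other way, with 731 and 584, and NEUROD2 had 794 and 750.

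**Figure D5:**
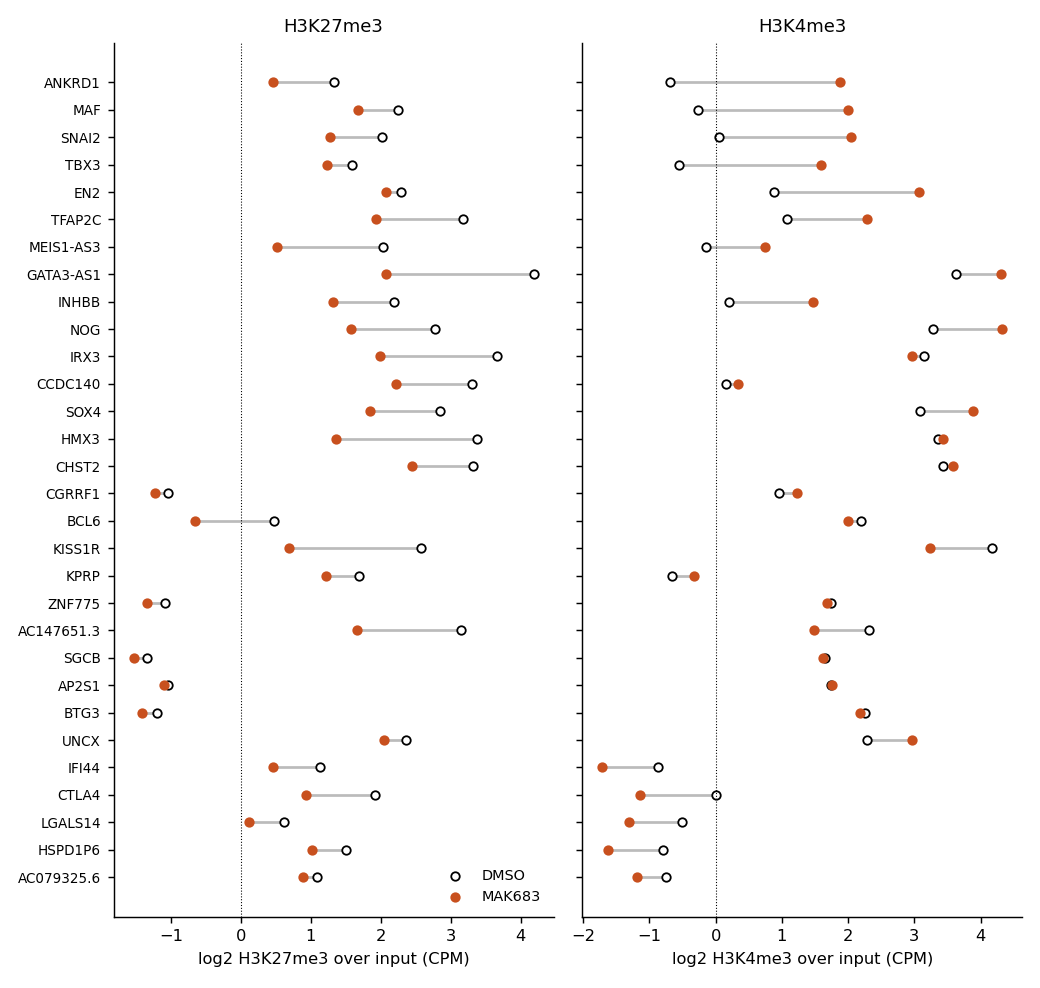
Log2 H3K27me3 (left) and H3K4me3 (right) over input in DMSO (open) and MAK683 (filled), 1 library each, for the genes with the lowest H3K27me3 ratios, the highest and lowest H3K4me3 changes and the highest and lowest H3K27me3 over input, ordered by H3K4me3 change. H3K27me3 over input is lower in MAK683 at every gene shown, while H3K4me3 rises most at ANKRD1, MAF, SNAI2, TBX3 and EN2 and falls at genes such as CTLA4.

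The developmental transcription factors among the 919 had a median H3K27me3 over input of 2.10 in DMSO and 1.41 in MAK683, and a median H3K4me3 change of 0.35, higher in 54 of 70 and at least 2-fold higher in 11. Over all 264 such genes the median change was 0.23, and 32 rose at least 2-fold. Under 20 kb and at 2 times input or more, 10 of 51 members and 28 of all 114 such factors rose at least 2-fold. The 37 symbol-named members on chromosome X had a median change of 0.06 and none rose at least 2-fold. All 371 such genes had 0.06, and 2 rose (0.539%). The 9 keratin members had a median change of 0.28, against 0.21 over all 44 such genes, and none rose at least 2-fold. The 14 cytokine and chemokine members had 0.41, against 0.18 over all 118 such genes, and 2 of the 14 rose at least 2-fold.

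Of the 25 genes that the study names in its text and that had at least 100 H3K27me3 counts, 4 met the rule, namely IGFBP5, TBX3, FAS and HLA-B. The study chose them on these cells, so they are not independent evidence. IGFBP5, which binds insulin-like growth factors, had 890 and 417 H3K27me3 counts and 376 and 738 H3K4me3 counts (66.2% in MAK683, 63.4 to 69.0). FAS, a death receptor gene, had 240 and 339 H3K4me3 counts (58.5%, 54.4 to 62.6). HLA-B, an antigen presenting gene, had 112 and 36 H3K27me3 counts and 62 and 89 H3K4me3 counts, on 27 and 36 input counts, and its reads can be shared with near-identical HLA genes. Among the other 21, HOXD13 and IGFBP3 had the largest H3K4me3 gains. HOXD13 missed the rule with 332 and 190 H3K27me3 counts and had 149 and 477 H3K4me3 counts. IGFBP3 missed it with 632 and 393 and had 166 and 335. H3K4me3 was lower in CPM for GBP1 (log2 change of -0.20), ITGA2 (-0.07) and IL1B (-0.04). Over all 25 genes the median log2 H3K4me3 change was 0.33.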

How the data were processed

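Libraries of H3K27me3, H3K4me3 and input from G401 cells in DMSO or MAK683, 1 of each, were analysed. The authors aligned reads to hg19 and deposited whole-number counts per gene (featureCounts). The submitters' processing notes name Trim Galore 0.4.4, Bowtie2, Picard 2.23.6 and deepTools 3.4.3. The gene annotation used for counting is not given in the sources used here. Reads per gene thus depend on gene length and overlap. No spike-in factors were applied here, and none are visible in the counts.

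Log2 ratios had 1 count added. Levels over input and H3K4me3 changes used CPM, for a summed input of at least 20 and at least 10 H3K4me3 counts in 1 library. Gene symbols were looked up in GENCODE 44 for GRCh37, the same build as hg19, in Python 3.11.15 (numpy 2.4.6, pandas 2.3.3, scipy 1.17.1, matplotlib 3.10.9). Intervals are exact Clopper-Pearson for shares, which cover counting error only, and binomial ranks for medians, which cover gene-to-gene spread only. The computation was tested on simulated counts with losses larger than those of most members. That test does not cover losses near the threshold. The members and lists were chosen with earlier results of these data known.

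The 132 genes that could be named were the 10 with the highest H3K27me3 counts in DMSO, the 10 with the lowest ratios (at least 200 counts), the 5 highest and 5 lowest H3K4me3 changes (mean of at least 50 counts), the 5 highest and 5 lowest H3K27me3 over input and the 5 highest H3K4me3 over input (summed input of at least 100), up to 4 per list, the 3 genes on each side of the threshold and genes named in the study. Some of these are not reported here. CDKN1C, HES1 and the neighbors in runs were named after their values were seen. Alternatives were other thresholds, count minimums, scales, pseudocounts and gene subsets.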

Additional observations from a re-analysis of the deposited data

How the results depend on the processing

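Of the values with an interval, 59 stayed inside it under an alternative, 40 moved outside it and 4 changed sign. With a loss of at least 2-fold, 519 genes remained in the count, with median H3K27me3 over input of 1.36, H3K4me3 over input of -0.27, an input change of 0.0767 and 18.6% of homeobox and PAX genes. A minimum of 50 counts gave 1480 genes and 1.10 for H3K27me3 over input. A minimum of 200 gave 519 genes, 1.44, an H3K4me3 change of 0.21 and 9.44% rising at least 2-fold. A minimum of 1000 gave 53 genes, 1.58, 0.33, 3.77%, H3K4me3 over input of -0.49 and 21.9% of homeobox and PAX genes. In CPM the rule took 50 genes (0.298% of those considered), all among the 919, with 1.76, 0.17, 16.0%, H3K4me3 over input of 1.59 (sign changed), an input change of 0.10 and 3.54% of homeobox and PAX genes. Relative to the median of all genes it took 73 (0.435%), with 1.76, 13.7%, 0.87 (sign changed), 0.12 and 3.54%. With H3K27me3 in CPM and the input change subtracted it took 196 (1.17%), of which 161 are among the 919, with 2.01, 0.21, 12.8%, 0.16 (sign changed), 0.49 and 7.14%. With H3K27me3 counts as deposited and the input change subtracted, an alternative chosen after seeing the data, it took 1602 (9.56%), of which 678 are among the 919, with an input change of 0.23. Among genes matched to the annotation, autosomal genes numbered 565 (H3K4me3 over input of -0.0718), protein-coding genes 505 (0.0771, sign changed) and genes with at least 50% unshared span 521 (-0.0821). Symbol-named genes under 20 kb, also chosen after seeing the data, numbered 447, with 1.40, -0.0649 and 41.3% of homeobox and PAX genes. A pseudocount of 10 in the rule gave 731 genes, 1.38 for H3K27me3 over input and 0.18 for the H3K4me3 change. For H3K27me3 over input, a pseudocount of 10 gave 1.20 and a summed input of at least 100 gave 1.13. H3K4me3 counts as deposited gave a median change of 0.00 and 5.55% rising at least 2-fold, and a pseudocount of 10 also gave 5.55%. The causes of these shifts were not tested.

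No paired analysis was possible because each treatment and antibody has 1 library and the comparisons come from no test. With 1 library per group no replicate was left out. At 100 counts the interval of a share is wide, and 787 of the 919 genes cannot be told apart from the threshold by counting error. The deposited counts carry no visible spike-in scaling, and the number of genes that met the rule depends on library size. Expression, accessibility and DNA methylation were not analysed here.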
